A study of Mus musculus with 58 samples.

Results

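These data describe hematopoietic stem cells (HSCs) from old mice in which Kdr and Bmpr1a were knocked down together, a set of 6 RNA-seq libraries chosen by their labels. Of these, 4 are Double_KdrBmpr libraries (2 with Bmpr1a shRNA1 and 2 with Bmpr1a shRNA2) and 2 are Double_Scramble libraries. They belong to a series of 58 samples on HSCs under caloric restriction. Donor cells in every group came from male C57BL/6 (CD45.2) mice of 24 to 26 months fed ad libitum, and the labels list the treatment of every group as control. HSCs were cultured overnight with lentivirus. The knockdown cells received a GFP-labelled virus against Kdr, shRNA5 in every case, together with an mCherry-labelled virus against Bmpr1a, either shRNA1 or shRNA2. Control cells received scramble shRNA in both colours. The cells were transplanted, without selection for either colour, into lethally irradiated young female CD45.1 mice along with CD45.1 myeloid progenitors, and CD45.2 LSK CD48- CD150+ cells positive for both colours were sorted afterwards for RNA. A single Kdr hairpin was used, so the data hold no second hairpin against Kdr. Whether the libraries came from separate recipients is not given in the sources used here, so the p-values measure the spread between these samples.

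Kdr encodes VEGF receptor 2, the main signalling receptor for Vegfa, known best for its role in endothelial cells. Bmpr1a encodes a type I receptor for bone morphogenetic proteins. It pairs with a type II receptor, phosphorylates Smad1 and Smad5, and through Smad4 these switch on targets such as the Id genes. Both receptors are expressed at low levels in adult HSCs. The comparison asked whether lowering both receptors moves the transcriptome of old HSCs away from its aged state and toward that of old calorically restricted (OCR) HSCs, which were compared in the same series with old ad libitum (OAL) HSCs.

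The 6 libraries held 35657999 to 40557302 counts and 23943 to 25149 detected genes. Log2 expression correlated at r = 0.961 to 0.989 between libraries, across genes, which are not independent replicates. The scramble libraries were the most alike (0.989), and shRNA1 replicate 2 stood farthest from the others (0.961 to 0.975). Markers of HSCs were present throughout. Kit was at 1345 to 1575 CPM (counts scaled to library size), Hlf at 274 to 446 CPM, Mecom at 184 to 234 CPM Procr at 96.5 to 136 CPM, and Slamf1, which encodes CD150, at 40.6 to 57.2 CPM. Pax5, Cd3g and Cd8a were at 0 in all 6 libraries. Here CPM are counts scaled with edgeR's TMM factors, which lay between 0.997 and 1.004.

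Kdr transcripts were lower in all 4 double knockdown libraries. The gene (ENSMUSG00000062960, minus strand, chr5:75932827-75978458 in GRCm38) stood at 3.95 and 4.64 CPM in scramble HSCs. With shRNA1 it stood at 1.23 and 0.558 CPM, and with shRNA2 at 1.60 and 1.35 CPM. The arms did not overlap, with means of 1.18 ± 0.445 CPM (SD, n = 4) and 4.30 ± 0.483 CPM (SD, n = 2). The log2 fold change was -1.86 (SE 0.37), which did not pass the adjustment over all genes (adjusted p = 0.272). These levels rest on 22 to 64 reads per knockdown library, against 151 and 188 reads per scramble library.

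Bmpr1a (ENSMUSG00000021796, minus strand, chr14:34410734-34503341) did not follow its label in every library. Scramble HSCs had 5.19 and 4.44 CPM. The library labelled shRNA1 replicate 1 had 4.43 CPM, practically the level of a scramble library, whereas the library labelled shRNA1 replicate 2 had 0.659 CPM. The libraries labelled shRNA2 had 2.23 and 0.592 CPM. The fold change over the 4 libraries was -1.29 on the log2 scale (SE 0.72, adjusted p = 0.602). Without the library labelled shRNA1 replicate 1 it was -2.05 (adjusted p = 0.373). In this library the label and the Bmpr1a level go against each other, and each direction below that includes it carries this limit.

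**Figure D1:**
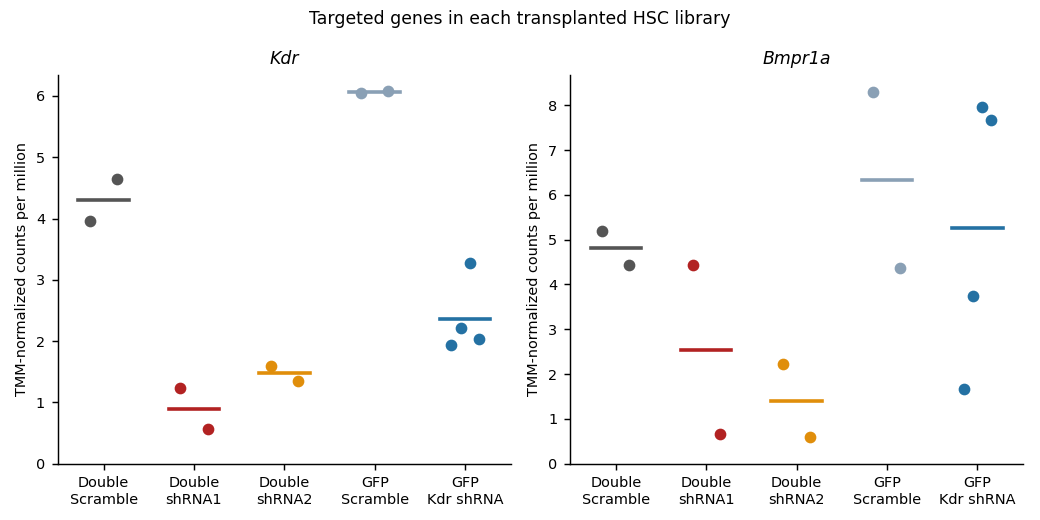
Kdr (left) and Bmpr1a (right) in TMM-normalized CPM, 1 point per transplanted HSC library, for the double knockdown by hairpin, its scramble, and the Kdr knockdown with its GFP scramble, with a bar at each group's mean. All double knockdown points for Kdr lie at or below 1.60, under the scramble points at 3.95 and 4.64, whereas 1 shRNA1 point for Bmpr1a, at 4.43, lies beside the scramble points.

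Across 20072 tested genes, 1 gene fell and 0 rose by more than 1.2-fold with an adjusted p under 0.05 (0.00498% of genes, edgeR's quasi-likelihood test). At an unadjusted p below 0.05 with the same fold change, 567 genes were higher and 779 lower (6.71%: 2.82% higher and 3.88% lower). Without scramble replicate 1 the 779 became 478. An unadjusted p below 0.05 alone was reached by 1977 genes, 9.85% of those tested. DESeq2, the tool of the study, called 157 genes higher and 175 lower on the same counts (1.65%). The call count thus depended on the tool, and in what follows a gene is said to have changed only where edgeR's adjusted test called it. Groups are described by counts at the unadjusted threshold, beside 2.82% and 3.88%. With 2 scramble libraries, non-overlap of the arms was common, at 10.6% of genes higher and 10.7% lower.

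The gene that fell was Tmem164 (ENSMUSG00000047045, plus strand, chrX:142681406-142843494), described as an acyltransferase that makes ether phospholipids. It measured 169 and 163 CPM in scramble HSCs. In the knockdown it measured 102 and 102 CPM with shRNA1 and 104 and 104 CPM with shRNA2. The knockdown libraries thus differed among themselves by a small part of their distance from scramble (103 ± 1.08 CPM, SD, n = 4, against 166 ± 4.03 CPM, n = 2). Its log2 fold change was -0.69 (SE 0.05, adjusted p = 0.0194). With any 1 of the 6 libraries left out the fold change stayed between -0.71 and -0.66, but the adjusted p rose to between 0.0621 and 0.576.

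In 10.6% of tested genes every knockdown library lay above both scramble libraries, and in 10.7% below them. From these genes, 7 that did not pass edgeR's adjusted test are described. Apart from Fzd6 they were chosen after their values were seen. Fzd6, a Wnt receptor, had 42.8 and 46.5 CPM in scramble and 26.5, 22.6, 23.9 and 21.9 CPM in the knockdown (log2 fold change -0.91, SE 0.11, adjusted p = 0.145). Gpd1l, a glycerol-phosphate dehydrogenase-like enzyme, had 68.8 and 71.6 CPM against 42.0, 43.4, 40.1 and 34.2 CPM (-0.81, SE 0.10). Dynlt3, a dynein light chain, had 104 and 99.1 CPM against 65.5, 68.9, 62.2 and 57.3 CPM (-0.68, SE 0.08). In none of these did the arms overlap. Nfe2l2, the transcription factor of the antioxidant response, was at 141 and 150 CPM against 93.5 to 113 CPM (-0.50, SE 0.08). Pgrmc1, a heme-binding membrane protein, was at 202 and 196 CPM against 92.7 to 137 CPM (-0.83, SE 0.13). In the other direction, Cd53, a leukocyte tetraspanin, had 61.2 and 53.6 CPM in scramble and 161, 110, 104 and 145 CPM in the knockdown (1.18, SE 0.19, adjusted p = 0.214). Emb, a cell adhesion protein, had 145 and 132 CPM against 187 to 215 CPM (0.51, SE 0.08). DESeq2 called each of these 7 genes, with adjusted p from 1.61e-10 for Fzd6 to 2.99e-05 for Nfe2l2.

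The 12 higher genes with the largest fold changes among those with an unadjusted p below 0.05, averaging 5 CPM or more and with arms that did not overlap, were Lpxn, Zmynd15, Map3k9, Lipo3, Wfdc2, Spire2, Nr0b2, Fbp1, Fcgr2b, Dpp4, Lsr and Gimap7. Their log2 fold changes ran from 2.44 for Lpxn, a focal adhesion adaptor, to 1.23 for Gimap7, a lymphocyte GTPase. Map3k9, a kinase upstream of Jnk, was among the steadiest, with 1.68 and 2.12 CPM in scramble and 6.02, 5.22, 8.93 and 6.71 CPM in the knockdown (1.82, SE 0.28, adjusted p = 0.214). Dpp4, the peptidase that inactivates Cxcl12, had 24.8 and 17.1 CPM in scramble and 36.1, 54.1, 53.7 and 58.9 CPM in the knockdown (1.27, SE 0.23). Spire2, an actin nucleator, had 3.80 and 3.01 CPM against 7.79, 8.29, 10.3 and 11.9 CPM (1.49, SE 0.25). All 4 knockdown libraries were high for these 3 genes. Lpxn was less even, at 1.60 and 2.94 CPM in scramble and 4.51, 16.0, 5.53 and 23.3 CPM in the knockdown. Fbp1, a gluconeogenic enzyme, was higher with shRNA1 (67.5 and 95.7 CPM) than with shRNA2 (49.5 and 51.6 CPM), and lower than both in scramble (23.6 and 30.0 CPM). Fcgr2b, the inhibitory Fc receptor, had the opposite order of hairpins, with 8.88 and 9.99 CPM for shRNA1 and 14.4 and 21.6 CPM for shRNA2 over 5.60 and 5.55 CPM in scramble.

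In the lower direction Tmem164 came first as the gene past the adjusted test, and 11 places were filled by fold change among genes with an unadjusted p below 0.05. They went to Xlr3a, Ermap, Rhd, Ly6c2, Runx1t1, Fcnb, Plk2, Cnn3, Klf1, Hes1 and Clu. Cnn3, an actin-binding calponin, had 12.1 and 13.9 CPM in scramble and 3.25, 2.94, 4.05 and 4.58 CPM in the knockdown (-1.81, SE 0.21, adjusted p = 0.145). Clu, which encodes clusterin and is higher in aged HSCs, had 18.2 and 9.72 CPM against 5.55, 1.67, 5.85 and 4.12 CPM (-1.70, SE 0.45). Hes1, a Notch target repressor, had 9.95 and 10.4 CPM against 4.82, 1.01, 5.05 and 1.35 CPM (-1.74, SE 0.60). Runx1t1, a corepressor, had 11.5 and 15.0 CPM in scramble, 1.71 and 1.27 CPM with shRNA1 and 5.75 and 3.53 CPM with shRNA2. Xlr3a was at 20.1 and 16.7 CPM in scramble and 0 to 1.90 CPM in the knockdown, but its family has near-identical copies on chromosome X, so its counts are uncertain. Below the level set for these genes, and chosen after their values were seen, Olfm4, a neutrophil glycoprotein, was at 4.48 and 5.13 CPM in scramble and 0, 0, 0 and 0.162 CPM in the knockdown. Prom1, a stem cell surface glycoprotein, was at 5.16 and 7.77 CPM against 0.168, 0.710, 1.05 and 0.808 CPM (-3.23, SE 0.52, adjusted p = 0.214). In GFP_Scramble, the scramble libraries of the Kdr knockdown, Prom1 was at 0.848 and 1.60 CPM and Olfm4 at 0.106 and 2.03 CPM. The Kdr knockdown libraries had Prom1 at 1.5 to 7.8 CPM. Ermap, Rhd and Klf1 are erythroid genes, and Ly6c2 and Fcnb are genes of monocytes and neutrophils. They are taken up with the markers of other cells.

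**Figure D2:**
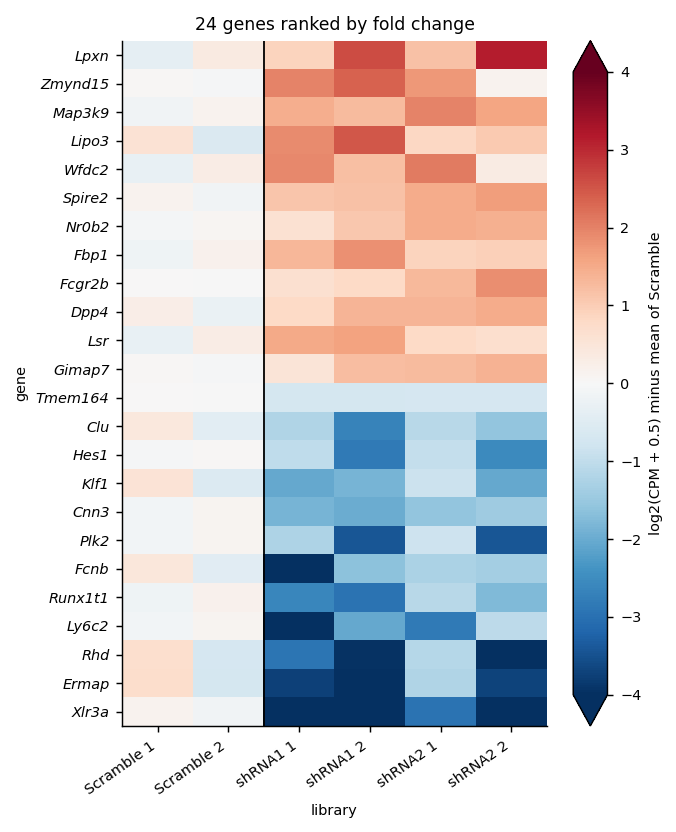
Each row is 1 of 24 genes and each column 1 library, coloured by log2(CPM + 0.5) minus the mean of both scramble libraries, with the colour scale ending at -4 and 4 and a line between scramble and knockdown. Tmem164 shows the same shade in all 4 knockdown columns, whereas Lpxn, Ly6c2 and Plk2 differ strongly between knockdown libraries.

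Of the 8 tested members of the VEGF receptor and ligand list, 3 were lower at the unadjusted threshold and 0 higher, with a median log2 fold change of -0.87. Kdr was 1 of the 3. The others were the neuropilins, co-receptors that present VEGF to Kdr. Nrp2 had 8.46 and 1.36 CPM in scramble and 0.504, 0.254, 0.650 and 0.539 CPM in the knockdown (-3.32, SE 0.65, adjusted p = 0.254). Nrp1 had 3.95 and 1.55 CPM against 0.616, 1.04, 0.976 and 0.862 CPM (-1.65, SE 0.40). Scramble replicate 1 was far above replicate 2 for both neuropilins, although the arms did not overlap. Nrp1 was at 0.504 and 1.15 CPM in GFP_Scramble, about its level in the double knockdown. Nrp2 stood above its double knockdown level in each GFP_Scramble library. Among ligands, Vegfa overlapped between the arms (12.7 and 10.2 CPM against 4.31 to 11.5 CPM), and so did Vegfc (18.4 and 20.6 CPM against 17.3 to 24.5 CPM). Vegfb was at 28.5 and 26.0 CPM against 22.0 to 23.8 CPM, a log2 fold change of -0.25 that stayed under the fold threshold. Flt4, the lymphatic VEGF receptor, overlapped (1.05 and 0.592 CPM against 0.203 to 1.73 CPM). Flt1 did not pass the filter on low counts, with 0.262 CPM as its highest level.

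BMP receptors other than Bmpr1a showed little difference. Of 8 tested receptor genes 1 was higher and 0 lower. Bmpr2, the type II partner, had 11.4 and 13.4 CPM in scramble and 10.1 to 15.9 CPM in the knockdown. Acvr1 (4.37 and 7.03 CPM against 4.36 to 6.01 CPM), Acvr2a (25.1 and 23.8 CPM against 21.9 to 28.5 CPM), Acvr2b (10.2 and 11.2 CPM against 8.13 to 10.7 CPM) and Eng (114 and 108 CPM against 84.0 to 126 CPM) overlapped as well. Rgmb, a BMP co-receptor, was that gene, with 7.12 and 8.29 CPM in scramble and 9.39, 15.7, 12.0 and 10.9 CPM in the knockdown (0.64, SE 0.23, adjusted p = 0.438). Bmpr1b was at 0 in every library.

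Among 4 tested ligands and antagonists, Bmp4 was the 1 that was lower. It had 2.41 and 1.95 CPM in scramble, 0.392 and 0.355 CPM with shRNA1 and 1.50 and 0.862 CPM with shRNA2 (-1.48, SE 0.56, adjusted p = 0.454). The arms did not overlap, and both shRNA1 libraries lay under both shRNA2 libraries. Bmp7 (2.28 and 2.94 CPM against 0.953 to 2.45 CPM), Bmp6 (1.18 and 1.28 CPM against 0.981 to 1.30 CPM) and Twsg1, an extracellular BMP modulator (156 and 150 CPM against 136 to 162 CPM), overlapped.

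Downstream of the receptor, no Smad reached the unadjusted threshold, whereas Id1, Id2 and Id3 were lower at it. Smad1 (111 and 123 CPM against 108 to 128 CPM), Smad5 (116 and 110 CPM against 103 to 114 CPM) and Smad4 (131 and 126 CPM against 130 to 140 CPM) overlapped between the arms, as did the inhibitory Smad7 (7.67 and 7.52 CPM against 5.09 to 9.05 CPM). Inhibitory Smad6 was at 8.14 and 7.45 CPM against 8.16 to 9.15 CPM. Of 14 tested Smads and BMP targets 4 were lower and 0 higher. They were Smurf1, the ubiquitin ligase that acts on Smad1 and Smad5, and Id1, Id2 and Id3, inhibitors of helix-loop-helix transcription factors. Id2 had 24.2 and 19.2 CPM in scramble, 10.0 and 7.81 CPM with shRNA1 and 15.4 and 12.8 CPM with shRNA2 (-0.91, SE 0.26, adjusted p = 0.337, and 0.0346 by DESeq2). Id1 had 3.67 and 1.97 CPM, 0.644 and 0.659 CPM, and 1.55 and 1.40 CPM in the same order (-1.40, SE 0.45). For both genes the shRNA1 libraries were the lowest, including the library labelled shRNA1 replicate 1, in which Bmpr1a was at the scramble level. Id3 had 2.41 and 0.740 CPM in scramble and 0.162 to 0.850 CPM in the knockdown (-1.64, SE 0.68), with overlap. Smurf1 was at 29.5 and 34.6 CPM against 22.8 to 27.6 CPM (-0.36, SE 0.12). Other list members overlapped: Smurf2 (18.6 and 22.1 CPM against 18.3 to 23.5 CPM), Bambi (11.3 and 12.7 CPM against 11.7 to 13.8 CPM), Gata2 (419 and 437 CPM against 397 to 467 CPM) and Runx1 (121 and 118 CPM against 106 to 153 CPM).

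The letters GGCGCC occur in BMP-responsive regions described for Id genes, so the stretch of 250 bases before the start of Id2 and Id3 was read from RefSeq (GRCm38.p6) and searched on both strands, where this palindrome reads alike. No stretch for Id1 was among the sequences used. Id2 held it once, Id3 did not, and 9.59% of all 32851 windows of this length held it. Capitals mark the match.
Id2, minus strand, chr12:25096093-25096342: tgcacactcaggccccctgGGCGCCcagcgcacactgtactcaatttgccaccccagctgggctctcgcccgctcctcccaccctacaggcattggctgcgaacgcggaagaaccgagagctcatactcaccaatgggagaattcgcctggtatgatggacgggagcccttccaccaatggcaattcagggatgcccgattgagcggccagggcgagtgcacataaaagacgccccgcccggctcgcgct
Id3, plus strand, chr4:136143572-136143821: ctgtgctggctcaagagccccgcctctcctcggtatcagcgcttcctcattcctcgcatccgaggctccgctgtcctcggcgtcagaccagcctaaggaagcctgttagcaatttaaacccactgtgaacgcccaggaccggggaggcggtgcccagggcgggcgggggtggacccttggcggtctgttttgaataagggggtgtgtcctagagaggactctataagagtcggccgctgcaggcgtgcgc
A match is a description of letters and no evidence of binding.

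Lipid synthesis held several lower genes. Of 13 tested genes of fatty acid synthesis and desaturation 4 were lower and 0 higher. In 9 of the 13 the arms did not overlap in the lower direction, against 10.7% of all genes. The median log2 fold change was -0.24, against -0.001 over all genes. Acly, which makes cytosolic acetyl-CoA from citrate, had 345 and 379 CPM in scramble and 255, 246, 264 and 246 CPM in the knockdown (-0.52, SE 0.06, adjusted p = 0.145). Fads2, the delta-6 desaturase, had 133 and 131 CPM against 91.8, 76.6, 101 and 78.2 CPM (-0.60, SE 0.11). Both had all 4 knockdown libraries well under scramble, and DESeq2 called both, with adjusted p of 2.81e-11 and 0.000335. Acacb, an acetyl-CoA carboxylase, had 8.88 and 9.20 CPM against 4.87 to 6.10 CPM (-0.73, SE 0.18). Fasn, the fatty acid synthase, had 165 and 133 CPM against 101 to 130 CPM (-0.34, SE 0.12).

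In cholesterol synthesis 5 of 24 tested genes were lower and 1 higher, with a median of -0.26. Cyp51, the lanosterol demethylase, had 64.9 and 71.3 CPM in scramble and 43.7, 48.5, 52.9 and 36.3 CPM in the knockdown (-0.59, SE 0.14, adjusted p = 0.298). Idi1, which isomerizes isopentenyl diphosphate, had 25.1 and 23.8 CPM against 16.8 to 20.4 CPM (-0.42, SE 0.12), and Lss, lanosterol synthase, had 30.3 and 31.6 CPM against 19.2 to 24.9 CPM (-0.42, SE 0.13). Arms did not overlap for any of the 3. Sqle (-0.32, SE 0.12) and Mvd (-0.50, SE 0.21) were lower as well. Ebp, a sterol isomerase, went the other way, with 38.7 and 40.0 CPM in scramble and 46.7 to 56.4 CPM in the knockdown (0.33, SE 0.10). The fatty acid oxidation list gave 0 calls of 15 in either direction, with 12 positive fold changes. In that list arms were apart for 7 in the higher and 1 in the lower direction, against 10.6% and 10.7% of all genes. Its member with the smallest p, Pdk3, an inhibitor of pyruvate oxidation, had a log2 fold change of 0.20 (SE 0.05), under the fold threshold.

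**Figure D3:**
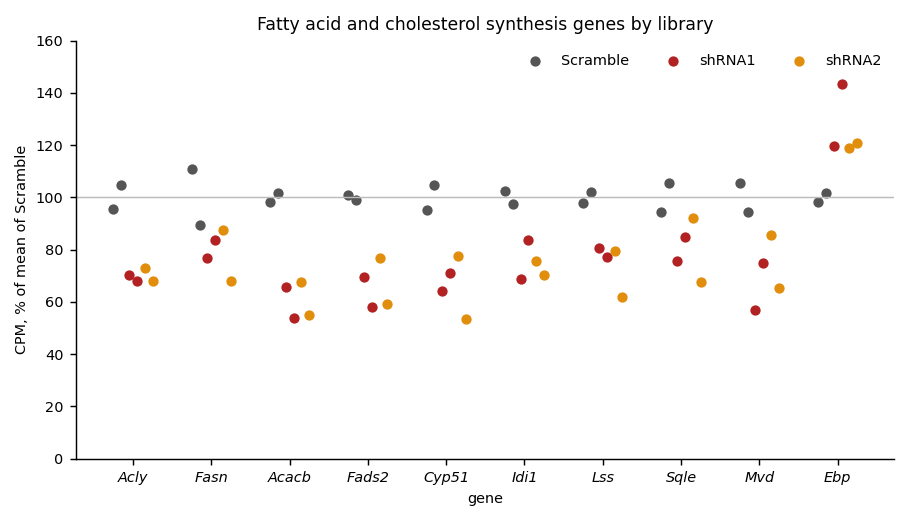
CPM of 10 lipid synthesis genes as a percent of the mean of both scramble libraries (grey line at 100), 1 point per library. Knockdown points of Acly lie tightly together below the line, those of the other lower genes scatter more widely, and those of Ebp lie above it.

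The aging signature, a list of genes that differ in aged HSCs and that was taken from the study's supplement, was not chosen on these libraries. Of 173 tested genes that are higher in aged HSCs 34 were lower in the knockdown and 7 higher, with a median log2 fold change of -0.30. Kdr and Bmpr1a are both members of this list, from which the study picked them as targets. Of 39 genes that are lower in aged HSCs 10 were higher and 1 lower, with a median of 0.20. Libraries contributed unequally. The median difference from scramble over the 173 genes was -0.93 in the library labelled shRNA1 replicate 2, and -0.18, -0.27 and -0.12 in the libraries labelled shRNA1 replicate 1, shRNA2 replicate 2 and shRNA2 replicate 1. Without shRNA1 replicate 2 the median was -0.21, with 32 lower and 14 higher genes. Without the library labelled shRNA1 replicate 1, whose Bmpr1a was at the scramble level, it was -0.32, with 40 lower and 6 higher. Leaving out either scramble library brought the 34 lower genes down to 20 (without replicate 1) or 19 (without replicate 2), the 7 higher genes to 3 or 5, and the 10 higher genes of the second list to 5 or 6.

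Among members that are higher in aged HSCs, Art4, a blood group enzyme, had 128 and 106 CPM in scramble and 61.0, 57.5, 77.5 and 55.5 CPM in the knockdown (-0.89, SE 0.14, adjusted p = 0.214). Lpl, lipoprotein lipase, had 10.0 and 7.35 CPM against a knockdown mean of 2.86 ± 0.779 CPM (SD, n = 4; -1.60 on the log2 scale, SE 0.28). Gpx3, a secreted glutathione peroxidase, had 4.30 and 5.40 CPM against 0.897 to 1.80 CPM (-1.72, SE 0.31), and Tm4sf1, a membrane protein of endothelial cells, had 5.16 and 7.85 CPM against 0.887 to 2.35 CPM (-1.86, SE 0.37). In all 4 genes every knockdown library lay under both scramble libraries. Itgb3, the integrin beta chain of platelets, is also on this list and was higher, with 69.1 and 67.0 CPM against 79.0 to 90.0 CPM (0.33, SE 0.07).

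Among members that are lower in aged HSCs, Lgals1, which encodes a galectin, had 33.2 and 22.6 CPM in scramble and 55.1, 48.7, 62.5 and 87.2 CPM in the knockdown (1.18, SE 0.26, adjusted p = 0.287). Cd34, a surface marker gained by multipotent progenitors, had 486 and 438 CPM against 664, 811, 540 and 747 CPM (0.58, SE 0.15). Antxr2 (0.57, SE 0.14) and Il15 (0.56, SE 0.14) also had arms that did not overlap.

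The list of genes lower in OCR than in OAL HSCs, chosen by the study on other libraries of the series, had 109 of 733 tested genes lower and 28 higher, with a median of -0.09. It shares 92 genes with the 180 that are higher in aged HSCs. Without scramble replicate 1 or 2 the 109 became 60 and 54. The opposite list, of genes higher in OCR HSCs, had 32 of 887 genes higher and 34 lower, a share of 7.44% close to the 6.71% of all genes, and a median of 0.01 that went to -0.001 when the scaling used well-expressed genes alone. Cks1b, a Cdk-binding protein of this list, was lower, with 133 and 117 CPM in scramble and 76.9, 62.3, 52.1 and 46.2 CPM in the knockdown (-1.07, SE 0.18, adjusted p = 0.219). The lipid synthesis genes Cyp51, Idi1, Lss, Sqle and Fasn, which were lower, are also on the list of genes higher in OCR. Among its higher members were Lgals1, Antxr2 and Flt3.

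**Figure D4:**
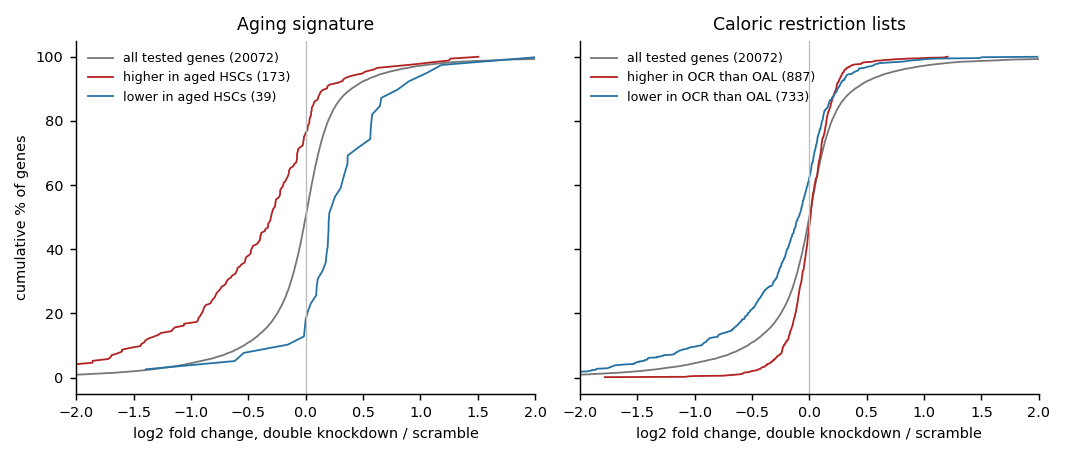
Cumulative percent of genes by log2 fold change, double knockdown over scramble, for the aging signature (left) and the caloric restriction lists (right), with all 20072 tested genes in grey; the axis stops at -2 and 2. The 173 genes higher in aged HSCs lie left of all genes (median -0.30) and the 39 lower in aged HSCs right of them (median 0.20), while the 887 genes higher in OCR cross all genes near 0.

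Most HSC identity genes differed little. Of 36 tested HSC identity genes 4 were lower and 1 higher, with a median of -0.07. Kdr was 1 of the 4. Fgd5, an HSC-restricted exchange factor, had 45.2 and 49.9 CPM in scramble and 34.6 to 44.5 CPM in the knockdown (-0.32, SE 0.12), and Eya1 had 83.5 and 90.5 CPM against 60.2 to 76.1 CPM (-0.30, SE 0.10). Cdkn1c, the Cdk inhibitor of quiescent HSCs, overlapped, with 29.8 and 34.3 CPM against 15.6, 11.5, 30.8 and 16.8 CPM (-0.78, SE 0.33). Gfi1, a repressor that restrains HSC cycling, was higher (23.8 and 24.9 CPM against 28.6 to 41.5 CPM, 0.49, SE 0.15). Of 13 multipotent progenitor genes 3 were higher and 1 lower, with a median of 0.19. Besides Cd34 these were Flt3 (43.5 and 52.7 CPM against 70.6, 108, 48.8 and 108 CPM) and Satb1 (3.40 and 1.38 CPM against 2.93 to 7.02 CPM), both with overlap, and the lower one was Irf8 (14.8 and 5.97 CPM against 4.85 to 6.81 CPM).

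Few cell cycle genes reached the unadjusted threshold. Of 43 S phase genes 0 were called in either direction. A positive fold change was found for 32 and a negative one for 11 (10018 and 10054 over all genes). Of the 43, 6 had arms apart in the higher direction and 0 in the lower, against 10.6% and 10.7% of all genes. Of 54 G2/M genes 1 was higher and 2 lower. The medians of the S phase and G2/M lists were 0.07 and 0.01. Mki67 (169 and 149 CPM against 122 to 191 CPM), Cdk1 (93.0 and 91.7 CPM against 74.4 to 101 CPM), Mcm5 (278 and 252 CPM against 247 to 291 CPM), Ect2 (96.9 and 79.1 CPM against 67.0 to 96.6 CPM), Chek1 (45.5 and 44.2 CPM against 44.2 to 52.0 CPM) and Brca1 (62.5 and 47.6 CPM against 50.0 to 68.1 CPM) overlapped between the arms. Ccna2, the S and G2 cyclin, had 182 and 172 CPM against 132, 155, 131 and 163 CPM (-0.29, SE 0.10, adjusted p = 0.426). Chek2, a DNA damage kinase, was at 63.6 and 58.9 CPM against 66.4 to 77.7 CPM (0.26, SE 0.08). Hells, a chromatin-remodelling helicase, had the smallest p of the S phase list, with a log2 fold change of 0.21. Kif23, a cytokinesis kinesin, was higher (0.44, SE 0.17). Among 20 cyclins, Cdks and their inhibitors 3 were lower and 0 higher, namely Ccnd1 (-0.61, SE 0.26), Cdkn1c and Rb1 (-0.30, SE 0.09). Spi1, which encodes PU.1, had 73.9 and 70.2 CPM in scramble and 81.3, 88.6, 84.5 and 89.3 CPM in the knockdown, a log2 fold change of 0.25 (SE 0.07, adjusted p = 0.321) that stayed under the fold threshold. Osmr, a cytokine receptor, did not pass the filter, at 0 to 0.616 CPM.

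In other signalling lists 12.5% to 26.7% of members passed the unadjusted threshold, 3 or 4 genes in each, against 6.71% of all genes. Of 18 Wnt receptors and targets 3 were lower and 0 higher, with a median of -0.35; besides Fzd6 they were Fzd3 (17.9 and 18.4 CPM against 8.35 to 13.8 CPM, -0.64, SE 0.20) and Lgr4, an R-spondin receptor (-0.96, SE 0.36). Of 14 TGF-beta genes 3 were lower and 0 higher, with a median of -0.17, namely the ligand Tgfb3 (6.31 and 7.38 CPM against 2.49 to 5.35 CPM, -0.90, SE 0.32), its binding protein Ltbp3 (-0.41, SE 0.15) and the co-receptor Tgfbr3 (-0.50, SE 0.19). Of 15 RTK and MAPK feedback genes 3 were lower and 1 higher. Errfi1, an inhibitor of the EGF receptor (-0.76, SE 0.23), and Dusp4, an Erk phosphatase (-0.56, SE 0.17), were lower, and Dusp5, another Erk phosphatase, was higher (0.38, SE 0.12). Among 20 immediate early genes 2 were lower and 1 higher, with Junb at 40.3 and 42.3 CPM against 31.4 to 35.0 CPM (-0.32, SE 0.09) and Jun at -0.53 (SE 0.22). Of 24 receptor tyrosine kinases and cytokine receptors 2 were higher and 1 lower, with Ifnar1 at 0.32 (SE 0.09). Of 23 adhesion and niche receptors 2 were higher and 1 lower, the latter being Itga6 (215 and 223 CPM against 146 to 199 CPM, -0.36, SE 0.12).

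Of 10 MHC class II genes 3 were higher and 0 lower. H2-Ob, a modulator of peptide loading, had 20.8 and 22.8 CPM in scramble and 40.9, 43.4, 26.1 and 53.3 CPM in the knockdown (0.91, SE 0.25, adjusted p = 0.330), with H2-Oa (0.46, SE 0.16) and H2-DMa (0.28, SE 0.10) beside it, all acting in peptide loading and none an antigen-presenting chain. Of 22 unfolded protein and Atf4 genes 2 were lower and 0 higher. Shmt2, the mitochondrial serine hydroxymethyltransferase, had 161 and 158 CPM in scramble and 111, 104, 109 and 78.0 CPM in the knockdown (-0.67, SE 0.13, adjusted p = 0.255), and Trib3, an Atf4 target, was at -0.61 (SE 0.16). Of 40 interferon-stimulated genes 1 was higher (Oas2, 0.46, SE 0.18) and 1 lower. Oas1a, an RNA sensor, was at 40.6 and 38.9 CPM against 43.5 to 48.7 CPM (0.22, SE 0.08). Of 20 p53 targets 1 was higher and 3 lower, among them Eda2r (3.12 and 5.23 CPM against 1.65 to 2.61 CPM, -1.08, SE 0.29). Of 18 heat shock chaperones 1 was lower, Hspe1 (-0.26, SE 0.08). Both directions together gave 0 calls among 18 glycolysis genes, 16 MHC class I genes, 18 Hox genes and partners, 86 ribosomal protein genes, 13 mitochondrially encoded and 78 nuclear OXPHOS genes. Of the nuclear OXPHOS genes 54 had a positive and 24 a negative fold change. Arms were apart for 19 of them in the higher and 2 in the lower direction, against 10.6% and 10.7% of all genes. Members of these 6 lists with the smallest p were Pfkp (-0.20), Tap2 (0.24), Hoxa9 (0.13), Rpl29 (-0.14), mt-Cytb (-0.16) and Ndufa1 (0.23) on the log2 scale.

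Several genes of other blood and stromal cells were lower in the knockdown. In bulk RNA fewer cells of a type and less RNA per cell cannot be told apart. Of 22 tested myeloid progenitor and granulocyte genes 4 were lower and 0 higher, 20 had a negative fold change, and the median was -1.08. Their summed level was 6713 and 3357 CPM in scramble HSCs and 1722, 2415, 2701 and 4894 CPM in the knockdown, which overlapped. The granule genes S100a8 (1031 and 267 CPM against 55.6 to 599 CPM) and Ngp (1335 and 180 CPM against 21.2 to 774 CPM) were highest in scramble replicate 1. Ly6c2 had 33.1 and 37.9 CPM in scramble and 1.68, 8.21, 4.60 and 16.8 CPM in the knockdown (-2.18, SE 0.66), a gene with a near-identical neighbour whose reads the counting could split. Fcnb had 37.2 and 19.3 CPM against 0.616 to 11.0 CPM, and Csf1r, the monocyte receptor, 16.3 and 14.3 CPM against 9.48 to 13.0 CPM (-0.44, SE 0.17). In GFP_Scramble, Ly6c2 was at 1.38 and 7.84 CPM and Fcnb at 0.795 and 13.4 CPM. The part of such cells in the fold changes above was not tested.

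Of 20 erythroid genes 6 were lower and 1 higher, with a median of -0.37. Klf1, the erythroid master regulator, had 31.7 and 14.3 CPM in scramble and 4.74, 5.53, 11.5 and 4.77 CPM in the knockdown (-1.79, SE 0.42, adjusted p = 0.296). Ermap had 27.6 and 9.92 CPM against 0.785, 0.254, 6.85 and 0.808 CPM, and Rhd, a blood group protein that is no member of the list, had 18.4 and 6.81 CPM against 1.04, 0.254, 4.88 and 0.215 CPM. Scramble replicate 1 and shRNA2 replicate 1 were the highest of their arms in all 3. GFP_Scramble had Klf1 at 6.79 and 9.25 CPM, Ermap at 1.72 and 5.95 CPM, and Rhd at 1.22 and 2.87 CPM. Tfrc, the transferrin receptor, had 49.5 and 40.9 CPM against 32.5 to 38.1 CPM (-0.37, SE 0.11). Aqp1, a red cell water channel, was at 53.4 and 44.0 CPM against 14.7 to 31.0 CPM (-1.08, SE 0.26). Hemoglobin did not follow: Hba-a1 was at 38.4 and 4.14 CPM in scramble and 46.7, 1.12, 11.1 and 82.9 CPM in the knockdown. The summed erythroid level overlapped, at 1887 to 2204 CPM against 1796 to 2276 CPM.

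Of 11 endothelial and stromal genes 5 were lower and 1 higher, with a median of -2.17 that rests on low counts. Cxcl12, the niche chemokine, had 9.95 and 8.39 CPM in scramble and 3.45, 1.17, 1.05 and 1.94 CPM in the knockdown (-2.27, SE 0.44, adjusted p = 0.248). Col1a2, a collagen chain, had 3.40 and 6.27 CPM against 0.254 to 2.24 CPM. Cxcl12 was at 1.33 and 1.63 CPM in GFP_Scramble, about its level in the double knockdown. The defining markers Cdh5 and Lepr were nearly or wholly absent, at 0 to 0.314 CPM and 0 to 0.641 CPM. Pecam1, shared by HSCs and endothelium, was higher (65.0 and 55.8 CPM against 71.0 to 86.7 CPM, 0.42, SE 0.10). The summed level of the list, most of it from Pecam1 and Emcn, was 115 and 121 CPM in scramble and 109 to 132 CPM in the knockdown. Lymphoid genes gave 1 higher of 14, Cd79b (29.9 and 38.2 CPM against 40.8 to 54.0 CPM), and 23 platelet genes gave 2 higher and 2 lower.

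Sex-linked genes bear on donor and recipient cells. Xist, which male donor cells do not express, was at 3.64 and 4.17 CPM in scramble and 3.68 to 11.2 CPM in the knockdown, the highest value being that of shRNA1 replicate 2. The Y-linked Uty (78.1 to 94.3 CPM) and Eif2s3y (111 to 132 CPM) were present at similar levels in all 6 libraries, whereas Ddx3y was at 50.0 CPM in shRNA2 replicate 2 and 106 to 144 CPM elsewhere. Kdm5d was higher in the knockdown (44.2 and 42.5 CPM against 49.3 to 58.5 CPM, 0.34, SE 0.09). What part recipient cells had in the results was not tested.

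Separated by Bmpr1a hairpin, shRNA1 against scramble gave 1 gene that rose and 2 that fell (0.0149% in all, 0.00498% and 0.00996%), and shRNA2 against scramble gave 0. Both comparisons share the scramble libraries. At the unadjusted threshold shRNA1 gave 627 genes higher and 1230 lower (9.25%: 3.12% and 6.13%), and shRNA2 gave 732 and 869 (7.98%: 3.65% and 4.33%). DESeq2 called 198 higher and 437 lower for shRNA1, and 217 and 210 for shRNA2. The 3 genes of shRNA1 were Tmem164 and, chosen after their values were seen, B4galt4 and Gm42047. B4galt4, a galactosyltransferase, was at 48.8 and 49.0 CPM in scramble, 23.4 and 23.8 CPM with shRNA1 and 49.0 and 47.5 CPM with shRNA2. It fell with shRNA1 by 1.05 on the log2 scale (SE 0.09, adjusted p = 0.0426), and its fold change with shRNA2 was -0.02 (SE 0.09). Gm42047, an unnamed gene model, was at 68.8 and 65.0 CPM in scramble, 142 and 131 CPM with shRNA1, where it rose by 1.03 (SE 0.08, adjusted p = 0.0414), and 90.6 and 85.6 CPM with shRNA2. Without shRNA1 replicate 1, whose Bmpr1a was at the scramble level, 77 genes were called, without shRNA1 replicate 2 there was 1, and without either scramble library 0.

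Tested against each other, shRNA2 and shRNA1 differed in 0 genes past the adjusted threshold (smallest adjusted p = 0.0894, shared by B4galt4 and Gm42047), with 1990 genes at an unadjusted p below 0.05 and, by DESeq2, 279 called higher and 113 lower. At the unadjusted threshold 975 were higher and 565 lower with shRNA2 (7.67%: 4.86% and 2.81%). Without shRNA1 replicate 1, 56 genes were called. The 5 largest in each direction with non-overlapping hairpins were Cfap74, Xlr3a, C3, Car1 and Chil1 higher with shRNA2, and Tfcp2l1, Pgr, Zfp951, Sorbs2 and Epcam lower. Pgr, the progesterone receptor, was the steadiest, at 7.87 and 11.8 CPM with shRNA1 and 2.60 and 2.85 CPM with shRNA2, against 9.11 and 8.29 CPM in scramble (shRNA2 minus shRNA1 -1.85, SE 0.26, adjusted p = 0.103). Sorbs2, an adaptor of the cytoskeleton, had 11.1 and 24.2 CPM against 5.33 and 5.87 CPM (-1.66, SE 0.42), Zfp951, a zinc finger gene, 15.9 and 27.4 CPM against 8.95 and 4.42 CPM (-1.69, SE 0.40), and Epcam, an epithelial adhesion protein, 8.57 and 20.3 CPM against 4.85 and 4.79 CPM (-1.58, SE 0.39). Car1, the erythroid carbonic anhydrase, had 4.71 and 0.913 CPM with shRNA1 and 47.3 and 15.7 CPM with shRNA2, within the 34.2 to 114 CPM of scramble or below it (3.51, SE 0.89). Complement C3 (3.60, SE 0.82) and Chil1, a neutrophil protein (3.26, SE 0.74), likewise had both shRNA1 libraries at the bottom. Kdr, targeted by the same hairpin in both, differed between them by 0.72 (SE 0.41, adjusted p = 0.635).

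The knockdown of Kdr alone, with 4 GFP_Kdr_shRNA and 2 GFP_Scramble libraries of the same donor age and transplant, shares no library with the double knockdown. Kdr itself was at 6.05 and 6.07 CPM in GFP_Scramble and 1.93, 2.22, 3.28 and 2.03 CPM with the Kdr shRNA (-1.35, SE 0.25). Its fold change in the double knockdown was lower by 0.50 (SE 0.48, adjusted p = 1.00). Bmpr1a without a hairpin against it also varied between libraries, at 8.30 and 4.38 CPM in GFP_Scramble and 1.68, 3.74, 7.97 and 7.68 CPM with the Kdr shRNA. In the double knockdown it was at 0.592 to 4.43 CPM.

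At the unadjusted threshold the Kdr knockdown had 600 genes higher and 759 lower of 20098 tested (6.76%: 2.99% and 3.78%). Genes that were higher or lower in the double knockdown mostly had the same sign in the single one. Of 544 genes higher in the double knockdown at the unadjusted threshold and tested in both, 429 (78.9%) had a positive fold change in the Kdr knockdown, against 49.9% of all 19385 genes, and 101 passed the unadjusted threshold there, with 7 passing it in the opposite direction. Of 756 lower genes 600 (79.4%) had a negative one, against 50.1%, with 203 past the threshold and 7 in the opposite direction. Tmem164 had 161 and 176 CPM in GFP_Scramble and 134, 127, 120 and 114 CPM with the Kdr shRNA (-0.45, SE 0.08), a fold change smaller by 0.24 than in the double knockdown (SE 0.10, adjusted p = 1.00). Fzd6 (-0.59, SE 0.11), Gpd1l (-0.58, SE 0.10), Dynlt3 (-0.63, SE 0.12) and Nrp2 (-2.53, SE 0.48) were lower in the Kdr knockdown. Cd53 (0.79, SE 0.14), Dpp4 (0.92, SE 0.22) and Lgals1 (0.81, SE 0.16) were higher there. All were taken from genes already described for the double knockdown. Other genes described for it differed little in the Kdr knockdown or had the opposite sign. Map3k9 (-0.02, SE 0.36), Hes1 (0.03, SE 0.21), Runx1t1 (0.03, SE 0.35) and Id2 (0.01, SE 0.26) had small fold changes there. Nrp1 (0.57, SE 0.84) and Prom1 (1.62, SE 0.63), lower in the double knockdown, had positive ones.

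The difference between the fold changes, tested as an interaction over all 12 libraries, gave 0 genes of 21250 past the adjusted threshold (smallest adjusted p = 1.00), 703 at the unadjusted one (3.31%), 760 at an unadjusted p alone, and 3 by DESeq2. Of the 5 with the smallest p in each direction among genes averaging 5 CPM or more over the double knockdown and its scramble, 4 of those higher in the double knockdown were MHC class II genes. Cd74, the invariant chain, was at 557 and 456 CPM in GFP_Scramble and 181 to 235 CPM with the Kdr shRNA alone, but at 228 and 247 CPM in Double_Scramble and 144 to 254 CPM in the double knockdown (difference of log2 fold changes 1.13, SE 0.26). H2-Aa (0.87, SE 0.22), H2-Ab1 (0.87, SE 0.22) and H2-Eb1 (1.17, SE 0.30), antigen-presenting chains, had the same arrangement, with both GFP_Scramble libraries above the other 10 libraries. Pgm1, a glycogen enzyme, was the fifth (0.34, SE 0.09). Those lower in the double knockdown were Emilin2, a matrix protein (-1.15, SE 0.27), Ubash3a, a phosphatase-like regulator of T cells (-1.84, SE 0.44), Acly (-0.37, SE 0.09), Exosc9, an exosome subunit (-0.39, SE 0.10), and Cnn3 (-1.79, SE 0.47), which was at 6.42 and 10.3 CPM in GFP_Scramble and 4.27 to 11.7 CPM with the Kdr shRNA.

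By list, the single knockdown had medians of -0.15 and 0.13 for the genes higher and lower in aged HSCs, where the double knockdown had -0.30 and 0.20. In the Kdr knockdown 38 of the 173 genes were lower and 4 higher, close to the 34 and 7 of the double knockdown. Fatty acid and cholesterol synthesis had medians of -0.32 and -0.21 in the Kdr knockdown, with 6 members lower and 1 higher in the first and 5 lower and 0 higher in the second. For G2/M genes the Kdr knockdown had a median of 0.28 with 25 of 54 genes higher and 1 lower, whereas the double knockdown had 0.01 with 1 higher and 2 lower. The list of genes higher in OCR HSCs had 124 genes higher and 32 lower in the Kdr knockdown and 32 and 34 in the double knockdown. No single member of either list passed the interaction test after adjustment, so a difference between the knockdowns was not shown for any of these genes. The 2 kinds of scramble library also stood at different levels for cell cycle genes. Mki67 was at 169 and 149 CPM in Double_Scramble and 97.25 and 89.8 CPM in GFP_Scramble. It was at 122 to 191 CPM in the double knockdown and 85.7 to 116 CPM in the Kdr knockdown. Cdk1 was at 93.0 and 91.7 CPM in Double_Scramble and 59.1 and 59.1 CPM in GFP_Scramble. The part of these control levels in the list medians was not tested.

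**Figure D5:**
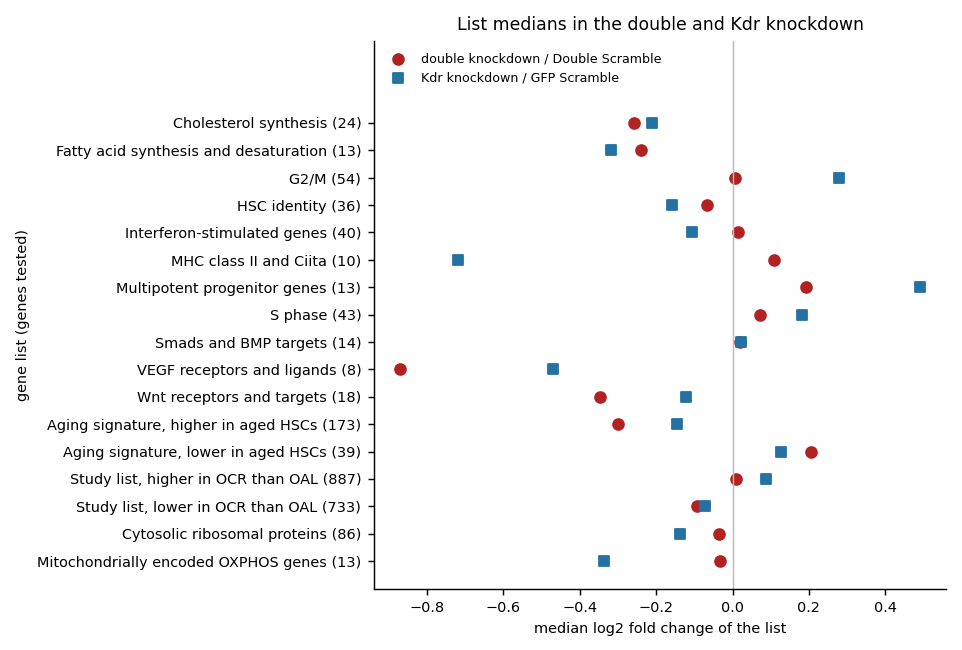
Median log2 fold change of 17 gene lists in the double knockdown (circles) and the Kdr knockdown (squares), each against its own scramble libraries, with the number of genes tested in parentheses. Lipid synthesis and aging signature lists lie on the same side of 0 in both, whereas G2/M genes lie at 0.01 and 0.28 and MHC class II genes at 0.11 and -0.72.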

How the data were processed

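The deposited files hold raw read counts per gene for each library, which per the labels the authors made with cutadapt, STAR and featureCounts on mm10 (GRCm38). Handling of multi-mapping reads and of strand is not given in the sources used here. The 6 libraries were compared with edgeR 4.0.16 (R 4.3.3), with TMM scaling, filterByExpr (20072 of 55376 genes tested), the quasi-likelihood test and Benjamini-Hochberg adjustment over all tested genes. Calls required a change of more than 1.2-fold with an adjusted p under 0.05, the study's thresholds; an unadjusted p below 0.05 with the same fold change, which the study used for the Kdr knockdown, served for counts over lists. Scramble, shRNA1 and shRNA2 were also fitted as 3 groups, and the 12 transplanted libraries as 4 groups with an interaction. Fold changes in parentheses are on the log2 scale with their SE. DESeq2 1.42.0, other scalings and filters, a replicate block and leaving out each library were alternatives. The procedure was tested on simulated data. Library totals limit genes of few reads, and counting error alone gives a floor of 3 reads. Libraries were checked for duplicates, and 0 pairs agreed within sampling noise.

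Named genes were the VEGF, BMP and Smad members at 1 CPM or above; 12 genes in each direction at a mean of at least 5 CPM without overlap, called genes first and then the largest fold changes at an unadjusted p below 0.05; up to 4 called members of each other list, or the 1 of smallest p; 5 in each direction for shRNA2 against shRNA1 and, by p, for the interaction, at the same mean level; and genes the study names. Every other gene named was chosen after its values were seen. The members and lists were chosen with earlier results of these data known. The aging signature and the OCR lists are the study's. Promoter stretches are from RefSeq. Gene coordinates are those of GENCODE, in which 54510 of the 55376 symbols were matched. A few genes that the rule would name are not reported here.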

Additional observations from a re-analysis of the deposited data

Results flagged for a closer look

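In the 4 double knockdown libraries, 187 values were checked for a library standing far from the other 3, and 14 were flagged; chance flags about 1 in 20. The library labelled shRNA1 replicate 1 stood low for Bmp6 (0.981 CPM) and Smad5 (103 CPM) and high for Cldn5 (0.0560 CPM, where the others were at 0). The library labelled shRNA1 replicate 2 stood apart for Errfi1 (2.08 CPM), Tfcp2l1 (23.7 CPM) and Ebp (56.4 CPM). The library labelled shRNA2 replicate 1 stood high for Xlr3a (1.90 CPM) and for the erythroid genes Ermap (6.85 CPM) and Klf1 (11.5 CPM). The library labelled shRNA2 replicate 2 stood high for Cd79b (54.0 CPM), Cfap74 (22.6 CPM), Olfm4 (0.162 CPM) and Lepr (0.269 CPM), and low for the Y-linked Ddx3y (49.95 CPM). Olfm4, Cldn5 and Lepr rest on very few reads.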

How the results depend on the processing

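The count of 1 changed gene became 332 with DESeq2, 19 without the filter on low counts, 15 in a fit with the Kdr knockdown libraries and 1346 at an unadjusted p; it was 0 with a replicate block and 0 to 1 when any library was left out, the 1 (without shRNA2 replicate 1) not being Tmem164. At the unadjusted threshold the 567 higher and 779 lower genes became 368 and 489 among genes averaging 5 CPM or more, and 474 to 638 and 478 to 950 with a library left out. At that threshold 683 were higher and 1165 lower without the filter on low counts. The counts were 588 and 1094 with 3 groups, and 615 and 927 in the fit with the Kdr knockdown libraries. The median of the genes higher in OCR was -0.001 when scaled on genes above 5 CPM and -0.026 to 0.062 with a library left out. Over the same omissions the genes higher in aged HSCs had 19 to 45 lower and 3 to 14 higher, those lower in aged HSCs 5 to 12 higher and 0 to 2 lower (2 without the filter), and those lower in OCR 54 to 150 lower. For shRNA1, the 3 genes became 635 (DESeq2), 27 (genes above 5 CPM), 5 (replicate block) and 0 to 77 (a library left out). For shRNA2 the 0 became 427, 2 and 1, with 0 at each omission; between the hairpins it became 392, 17 and 1, and 0 to 56; and for the interaction it became 3 with DESeq2. Leaving out a library reversed Mcm5 (-0.0837 to 0.0591), Mki67 (-0.111 to 0.0983), Brca1 (-0.1026 to 0.2885) and Plvap (-2.3526 to 0.2295). The cause was not tested. Of 1918 values for 130 genes, 1830 kept direction and side of the threshold, 72 passed it newly and 7, all of Tmem164, no longer passed it. Where an omission left 1 library in an arm, it was assumed to vary like the others. Labels share replicate numbers, and the deviations of libraries numbered 1 correlated at -0.0277, -0.17 and 0.0907. These values show no strong pairing by number, but with so few libraries they cannot exclude a shared recipient or batch. Depth limits Kdr, Bmpr1a, Id1 and Id3, which rest on few reads.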
